A study of Mus musculus with 8 samples.

Results

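Chondrocyte-like cells made up most of the single-cell library from the ascending aorta of KO mice at the latest point of a high fat diet, at the Col2a1 level that defines them. They were chosen by transcript counts: Col2a1, the collagen of the cartilage matrix, at 0.1% or more of a cell's unique molecular identifiers (UMIs, each marking 1 counted transcript), and no UMI of Myh11, the myosin heavy chain of contractile smooth muscle. The choice took 1254 of the 1577 cells of that library (79.5%, exact binomial interval 77.4% to 81.5%), out of 6259 cells in the 4 KO libraries and 13056 cells in all 8 libraries. The share depends on the level: it was 48.0% with Col2a1 at 0.5% of UMIs and 33.4% (527 cells) at 1%. The other 323 cells of the library are their reference below. They comprised 148 cells that reached the Col2a1 level but had a Myh11 UMI, 118 cells under the level with no Myh11 UMI, and 57 cells under the level with Myh11.

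KO mice were Apoe-/- animals with the TGF-beta receptor TGFbR2 knocked out in smooth muscle (genotype label TGFBetaRiSMC-Apoe), and their controls were Apoe-/- animals, which carry the same Apoe loss. High fat diet (HFD) lasted 1, 2 or 4 months in each genotype, beside mice on the diet called ND. Aortas were digested, sorting kept the GFP-positive cells, meant to be smooth muscle, and each genotype and diet gave 1 library on the 10x Genomics Chromium system, so the sort decides which cells could be seen. The promoter behind the GFP and the knockout, the ages and the number of animals in a library are not given in the sources used here. With 1 library a group there was no test, and every interval below covers counting error only. The genes that chose the cells, and all genes measured in the same cells, are described rather than tested.

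Chondrocytes build cartilage from type II, IX and XI collagen fibrils filled with aggrecan, under the transcription factor SOX9. In growth cartilage they can mature into hypertrophic cells that secrete type X collagen, mineralise the matrix with alkaline phosphatase, and express bone proteins such as osteopontin (Spp1) and bone sialoprotein (Ibsp). Chondrocytes at a joint surface instead secrete lubricin (Prg4). In arteries, smooth muscle cells that lose contractile proteins and take on such genes are known from calcified atherosclerotic plaques.

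RUNX2, a transcription factor of hypertrophic chondrocytes and bone, is known to act on the genes of osteocalcin (Bglap), osteopontin and collagenase 3 (Mmp13), all of which mark subsets of the chondrocyte-like cells below. The 250 bases before the start of these 3 genes are shown because they hold the core letters that RUNX proteins read. The sequences are from RefSeq on GRCm38.p6, 5′ to 3′ on the gene's strand, with ACCACA (or TGTGGT, its reverse complement) in capitals. They lie at chr3:88384467-88384716 (minus strand, Bglap), chr5:104434861-104435110 (plus strand, Spp1) and chr9:7272264-7272513 (plus strand, Mmp13).
Bglap: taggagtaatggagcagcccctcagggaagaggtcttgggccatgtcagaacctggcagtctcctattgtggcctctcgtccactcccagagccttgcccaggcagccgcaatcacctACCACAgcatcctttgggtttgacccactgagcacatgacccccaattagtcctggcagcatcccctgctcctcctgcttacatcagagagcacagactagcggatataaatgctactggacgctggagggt
Spp1: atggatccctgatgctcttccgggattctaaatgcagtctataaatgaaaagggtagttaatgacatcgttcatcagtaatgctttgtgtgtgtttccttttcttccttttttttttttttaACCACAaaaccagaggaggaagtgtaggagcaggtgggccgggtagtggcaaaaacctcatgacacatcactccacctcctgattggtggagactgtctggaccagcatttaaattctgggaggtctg
Mmp13: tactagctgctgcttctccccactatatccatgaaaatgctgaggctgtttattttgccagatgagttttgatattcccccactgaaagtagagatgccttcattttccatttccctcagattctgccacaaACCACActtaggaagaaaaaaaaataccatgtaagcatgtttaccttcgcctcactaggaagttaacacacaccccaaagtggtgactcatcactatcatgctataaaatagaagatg
Each window held 1 match, which began 132 bases before the start of Bglap, 128 before that of Spp1 and 118 before that of Mmp13. These letters occurred in 4614 of all 32851 such windows, counting both strands. A match is a description, and binding was not measured. Of the bone list, which includes these 3 genes, 6 of the 12 genes with a window held a match. A gene counted when any of its windows matched, so this count is not in the same unit as the share of windows. Dmp1 and Mepe, among the 6, had no listed UMI in this library. Of the named genes that were higher in Bglap-rich cells (the 290 with the highest level) 0 of 3 with a window held one, and of those higher in Spp1-rich cells 1 of 6, Mmp13. Runx2 itself was low, at 48.1 UMIs per 1000000 (CPM) pooled over the chondrocyte-like cells, against 41.1 in the other cells. Runx1 stood at 147 CPM against 151.

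The chondrocyte-like cells held 81.8% of the library's 18301826 UMIs, with a median of 11590 UMIs and 2994 genes per cell, against 8586 UMIs and 2778 genes in the other cells. The 8 libraries had medians of 6966 to 10988 UMIs per cell. The library shared 2 to 9 of its 1577 cell barcodes with each of the others. Of the marker lists for other cell types, 0 of 9 lymphocyte genes, 1 of 9 endothelial genes, 3 of 13 macrophage genes and 1 of 6 Schwann cell genes were listed in the KO table, and Ptprc, Adgre1, Pecam1, Cdh5 and Cd3e were among those not listed. Genes seen in fewer than 5% of a library's cells are listed at 0, so a missing marker does not show that a rare cell type was absent. Of the cells of the library 3 had 3 or more markers of such a type, and 1 of these was a chondrocyte-like cell. Summed over the listed macrophage markers, the chondrocyte-like cells had 55.8 CPM against 35.1 CPM in the other cells, and Lyz2 was 2-fold higher (log2 ratio 1.28), a direction that turned with Col2a1 at 0.5% (log2 ratio -2.08) or 1% of UMIs (-1.84).

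Cartilage transcripts were also counted in contractile cells of this library, and the part of free RNA in the droplets was not tested. The 57 Myh11-positive cells under the Col2a1 level had a pooled Acta2 level of 11502 CPM, yet 98.2% of them had a Col2a1 UMI. Their median Col2a1 level was 810 CPM, at a median depth of 7664 UMIs. That median lies close to the level of 1000 CPM that chose the cells. These 57 cells were themselves taken from under that level, so their highest value was 998 CPM and their median cannot measure a background. Cells at the level with 2 or more Myh11 UMIs (54 cells) had 3554 CPM of Col2a1 and 12069 CPM of Acta2. Of the chondrocyte-like cells, 242 had Col2a1 under 0.2% of their UMIs, and 52 lay between 0.1% and 0.12%. Just inside the level, the 5 nearest cells had 0.1005% to 0.1012% Col2a1 and 1012 to 9045 CPM of Chad. Just outside it, the 5 nearest cells with no Myh11 UMI had 0.0989% to 0.0995% Col2a1 and 662 to 7203 CPM of Chad. The Chad ranges on both sides of the level overlapped, so the edge of the group is not sharp.

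The other edge, at 0 Myh11 UMIs, also cut through similar cells. Among cells at the Col2a1 level, 94 had exactly 1 Myh11 UMI and 54 had 2 or more. The 1254 chondrocyte-like cells had 167 CPM of Acta2 (smooth muscle actin), the cells with 1 Myh11 UMI had 148 CPM, and those with 2 or more had 12069 CPM. Chad stood at 6444, 5613 and 1924 CPM in the same order, and Col2a1 at 13051, 12172 and 3554 CPM. Cells with a single Myh11 UMI thus lay near the chondrocyte-like cells in these 3 genes, and their median depth was 14030 UMIs, against 11590 UMIs in the chondrocyte-like cells. The reference of 323 cells contains them, which keeps its cartilage levels up.

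**Figure D1:**
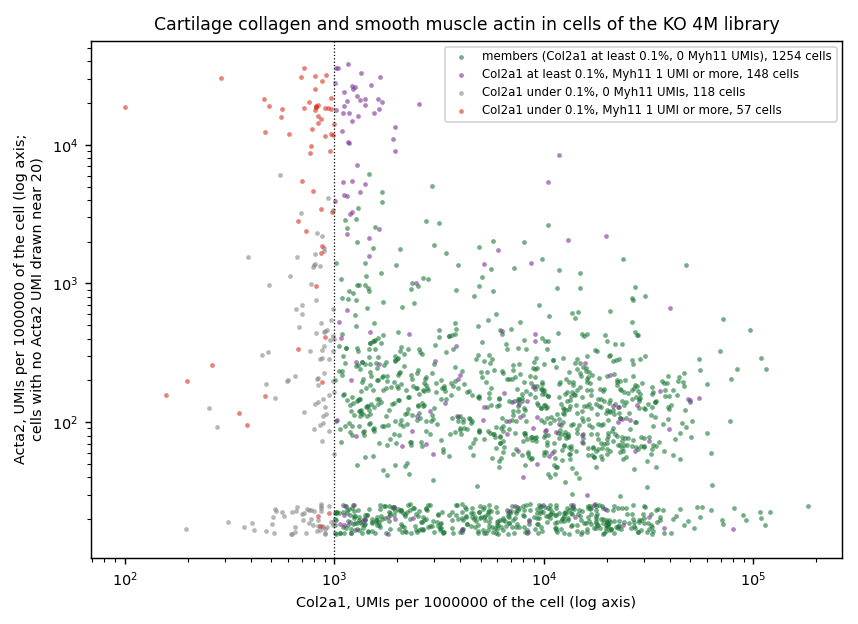
Each point is 1 of the 1577 cells of the KO 4M library, by its Col2a1 level (x, log axis) and Acta2 level (y, log axis), both in UMIs per 1000000 UMIs of the cell. The dotted line is the 0.1% level. The 1254 chondrocyte-like cells (green) run from 1005 to 183245 CPM of Col2a1 with mostly low Acta2, and the 57 Myh11-positive cells left of the line have a median Acta2 level of 12303 CPM.

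Cartilage collagens led the genes of the chondrocyte-like cells. Pooled over cells, Col2a1 (chromosome 15, 97975602 to 98004695, minus strand, GRCm38) stood at 13051 CPM (exact Poisson interval 12993 to 13109), against 5901 in the other cells. The partners that form its fibrils came with it: Col11a1 had 1883 CPM against 729, and Col11a2 had 871 CPM against 402. The surface collagens of those fibrils did too, with Col9a1 at 1034 CPM against 419, Col9a2 at 2172 against 932 and Col9a3 at 1544 against 740. Col10a1, the collagen of hypertrophic cartilage, had the highest ratio of all named genes (log2 ratio 1.53, interval 1.10 to 1.99) but a low level, 40.6 CPM against 14.1. It was seen in 10.4% of the chondrocyte-like cells and in 15.8% of the 57 Myh11-positive cells, so the first share is not above the second. Apart from Col2a1, 6 of the 11 cartilage collagens tested were at least 2-fold higher and none was 2-fold lower, with a median log2 ratio of 1.06. Over all 8263 genes seen in 10% of either group, 0.496% were 2-fold higher (41 genes) and 6.70% were 2-fold lower (554 genes), with a median log2 ratio of -0.16. The other cells include the 94 that resemble the chondrocyte-like cells but have 1 Myh11 UMI. With these counted among the chondrocyte-like cells, 224 genes were higher and 1102 lower, and against cells under the Col2a1 level alone 219 were higher and 1065 lower. Scaling both pools by a trimmed mean instead of total UMIs would raise each ratio by 0.16 and would give 84 higher and 414 lower genes, so that 16.9% of the calls are higher ones, against 6.89% with total UMIs.

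Aggrecan and the proteins that bind it were abundant as well. Acan, the large aggregating proteoglycan, stood at 882 CPM against 527, and its median over single chondrocyte-like cells was 701 CPM, compared with 69.1 CPM over the 57 Myh11-positive cells. Hapln1, which links aggrecan to hyaluronan, had 1002 CPM against 535. Chad (chondroadherin, a leucine-rich protein that binds type II collagen) was seen in every cell of the library. It stood at 6444 CPM in the chondrocyte-like cells against 3345 in the other cells. Its lowest, median and highest levels over single chondrocyte-like cells were 197, 3155 and 62340 CPM, against 545, 1114 and 2717 CPM over the 57 Myh11-positive cells. The ranges overlapped at the low end, and the median chondrocyte-like cell lay above the highest of these 57 cells.

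Smaller proteins of the cartilage matrix followed. Comp, a glycoprotein that assembles collagen, stood at 3842 CPM against 1716, Snorc, a proteoglycan of chondrocytes, at 3537 against 1611, and Cnmd (chondromodulin, an inhibitor of vessel growth) at 4726 against 2280. Matn3, a matrilin of growth cartilage, was lower in level, 337 CPM against 137, and 47.4% of the chondrocyte-like cells had a UMI of it, against 28.1% of the 57 Myh11-positive cells. In this list of minor matrix proteins 6 of the 15 tested were 2-fold higher and none was 2-fold lower. Comp was unevenly spread: its median cell had 681 CPM and its 95th percentile 18531 CPM. Snorc had a median of 1947 CPM, compared with 146 CPM over the 57 Myh11-positive cells.

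Of the transcription factors of cartilage and bone, 23 were tested, none was 2-fold higher, and Epas1 alone was 2-fold lower (27.3 CPM against 55.8). Sox9, the master regulator of chondrocytes, stood at 659 CPM against 474, with a median of 535 CPM over single chondrocyte-like cells and 141 CPM over the 57 Myh11-positive cells. Its partners Sox5 and Sox6 were low, at 55.8 CPM against 47.7 and 82.0 CPM against 61.8. Sp7, needed for bone formation, stood at 50.5 CPM against 30.6. Pooled levels of these 4 factors stayed inside the 2-fold bound.

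Genes of mineralising and bone cells were present, at levels that differed widely. Bglap (chromosome 3) had 3377 CPM against 1474, and its neighbouring copy Bglap2 had 1503 CPM against 741. These copies are near-identical, so reads may have been split between them. Alpl, the phosphatase that frees phosphate for mineral, stood at 766 CPM against 357, and Ibsp, which binds mineral, at 2620 CPM against 1338. Spp1 did not follow, with 5200 CPM against 5747, and its level was higher still, 7829 CPM, in the 118 cells under the Col2a1 level without Myh11. Of the bone list 5 of 12 genes tested were 2-fold higher, and 1 was 2-fold lower: Sost (sclerostin, a Wnt inhibitor of bone and of arterial smooth muscle), at 2.67 CPM against 117, with 403 CPM in the 57 Myh11-positive cells. Inhibitors of calcification were high at the same time. Mgp (matrix Gla protein) was the fourth most abundant gene at 13292 CPM against 11935, and Tnfrsf11b (osteoprotegerin, which blocks osteoclast formation) had 1793 CPM against 1208.

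Secreted and matrix proteins were among the most abundant transcripts. Sparc (osteonectin) came first at 35838 CPM against 20485, and its median over single chondrocyte-like cells was 29664 CPM, compared with 3940 CPM over the 57 Myh11-positive cells. Cst3 (cystatin C, a protease inhibitor) came second at 30843 CPM against 23384. The 10 most abundant genes held 15.8% of the UMIs of the chondrocyte-like cells and the 100 most abundant held 40.4%. The proteoglycans Dcn and Lum, also typical of fibroblasts, had 7975 CPM against 7128 and 3877 CPM against 4833. Col1a1, the collagen of bone and scar, had 1947 CPM against 1811, spread from a median of 336 to a 95th percentile of 9226 CPM. Of the 8 fibroblast markers tested none was 2-fold higher and 2 were 2-fold lower.

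**Figure D2:**
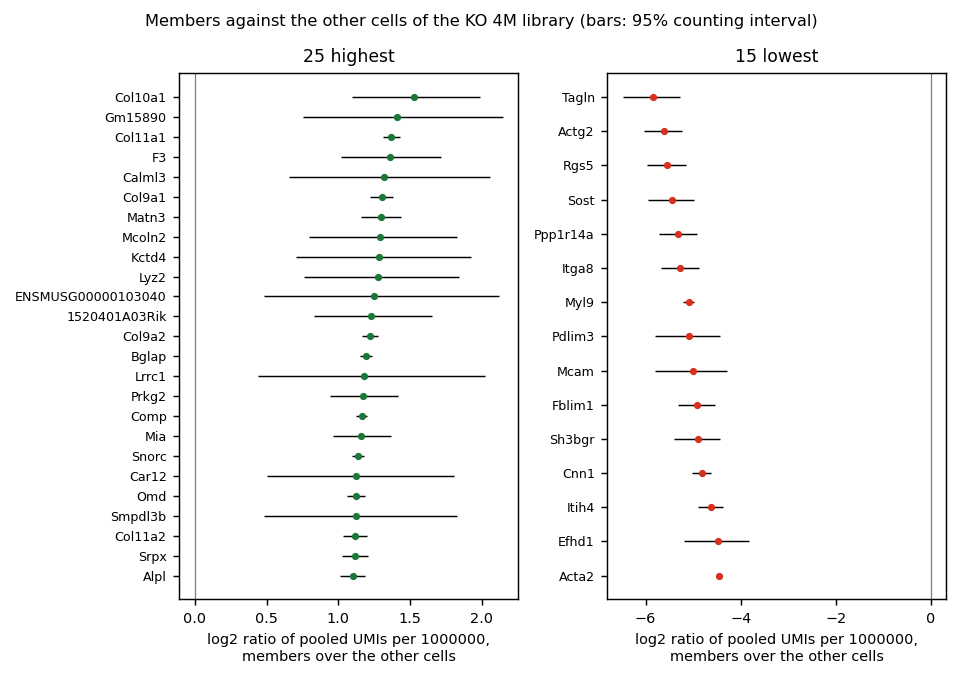
Log2 ratio of pooled UMIs per 1000000 in the 1254 chondrocyte-like cells over the other 323 cells of the KO 4M library, for the 25 genes with the highest (left, green) and the 15 with the lowest (right, red) ratio. Bars are 95% counting intervals. The highest ratios lie between 1.10 (Alpl) and 1.53 (Col10a1), and the lowest between -5.85 (Tagln) and -4.45 (Acta2).

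Contractile genes were low in the chondrocyte-like cells. Acta2 had 167 CPM against 3655, Myl9 (myosin light chain) 42.6 CPM against 1459, and Cnn1 (calponin) 15.4 CPM against 433. Tagln (transgelin) had 1.74 CPM against 99.9, a log2 ratio of -5.85. Of the 14 contractile genes tested apart from Myh11, 13 were at least 2-fold lower, with a median log2 ratio of -4.24. The exception was Tpm1, with 402 CPM against 771. Single chondrocyte-like cells still reached 6160 CPM of Acta2, and 64.2% had at least 1 Acta2 UMI, with a median of 82.7 CPM. Because the cells were chosen for having no Myh11 UMI, this side of the comparison is partly set by the choice. Pericyte markers were low as well (5 of 6 tested were 2-fold lower), among them Rgs5 at 3.67 CPM against 173.

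Elastic fibre genes were low together. Eln (elastin) stood at 14.4 CPM against 237, with 536 CPM in the 118 cells without Myh11 under the Col2a1 level and 405 CPM in the 57 Myh11-positive cells. Ltbp1, which stores latent TGF-beta on fibres, had 41.1 CPM against 355, and Loxl1, an elastin crosslinker, had 8.35 CPM against 65.7. Of 16 elastic fibre genes 13 were 2-fold lower (median log2 ratio -2.06). The exceptions were Efemp2 (247 CPM against 211), Emilin1 (583 CPM against 353) and Ltbp3 (43.7 CPM against 60.3).

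Other groups are read against the 6.70% of all tested genes that were 2-fold lower and the 0.496% that were 2-fold higher. Of the 13 interferon response genes tested 5 were 2-fold lower, among them Ifitm3 (153 CPM against 607) and H2-K1 (53.1 CPM against 123), and none was higher. The surface proteins used to define mesenchymal stem cells were 2-fold lower in 4 of 7, such as Vcam1 (48.4 CPM against 498) and Ly6a (22.8 CPM against 188). In the TGF-beta and BMP pathway 2 of 31 genes were 2-fold lower, among them the ligand Tgfb3 (31.1 CPM against 63.0), and none was higher, a share near that of all genes. Its targets Id1 (403 CPM against 546) and Id3 (930 CPM against 1626) stayed inside the 2-fold bound. Of 14 Wnt and hedgehog genes 2 were lower and 1 was higher, Ihh (Indian hedgehog, the signal of prehypertrophic chondrocytes), at 37.1 CPM against 18.0. Pth1r, the receptor in the same signalling loop, had 821 CPM against 413 (log2 ratio 0.99). Heat shock genes Hspa1a and Hspa1b, which respond to tissue digestion, were the 2 of 21 stress genes that were 2-fold lower (220 CPM against 568 for Hspa1a), again a share near that of all genes.

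Within the chondrocyte-like cells the 4 genes Col2a1, Bglap, Spp1 and Prg4 had different distributions. Col2a1 ran from 1005 CPM through a median of 7490 to 183245 CPM, and 527 cells (42.0%) had 1% or more of their UMIs from it. Bglap was at 0 in 12.4% of cells, had a median of 262 CPM and reached 136785 CPM, and the 125 cells with the most Bglap held 79.3% of its UMIs. Spp1 had a median of 775 CPM and reached 277251 CPM, with 75.4% of its UMIs in the 125 cells with the most. For both bone proteins, then, the pooled level describes a minority of cells. Prg4 was at 0 in 10.5% of cells, had a median of 483 CPM and reached 65566 CPM.

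Set against the 57 Myh11-positive cells, whose medians were 137 CPM for Bglap, 457 for Spp1 and 119 for Prg4, the medians of the chondrocyte-like cells were higher in all 3 genes. The upper parts of the distributions lay further apart. None of the 57 cells passed 360 CPM of Bglap, while the 95th percentile of the chondrocyte-like cells was 17428 CPM. The 148 Myh11-positive cells at the Col2a1 level had a 95th percentile of 12796 CPM and reached 80967 CPM. The 118 cells under the level without Myh11 had medians of 172 CPM for Bglap, 1259 for Spp1 and 1615 for Prg4. Their medians were thus above those of the chondrocyte-like cells for Spp1 and Prg4. At least 1% of UMIs came from Bglap in 98 chondrocyte-like cells, from Spp1 in 142 and from Prg4 in 17. For Spp1 this was 11.3% of the chondrocyte-like cells, 15.3% of the 118 cells and 11.5% of the 148 cells. Of the 98 Bglap cells 23 (23.5%) were also among the 142 Spp1 cells (16.2% of these), and none was among the 17 Prg4 cells.

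**Figure D3:**
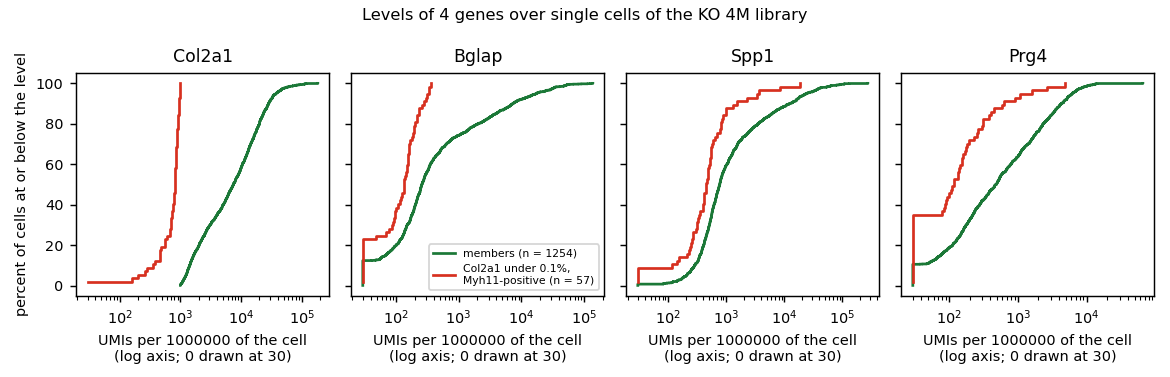
Cumulative share of cells (y, percent) at or below a level of Col2a1, Bglap, Spp1 and Prg4 (x, UMIs per 1000000 of the cell, log axis, with 0 drawn at 30) for the 1254 chondrocyte-like cells (green) and the 57 Myh11-positive cells under the Col2a1 level (red). The green curves reach further right in all 4 panels, with medians of 7490, 262, 775 and 483 CPM, against 810, 137, 457 and 119 CPM. The 118 cells without Myh11 under the level and the 148 Myh11-positive cells at the level are not drawn.

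To describe the spread at 1 depth, cells were thinned to 5000 UMIs, which kept 1162 of the 1254. Over these, Col2a1 and Prg4 were opposed (Spearman rho -0.42). The other pairs were weak: Col2a1 with Bglap 0.20, Col2a1 with Spp1 -0.15, Bglap with Prg4 -0.16, Spp1 with Prg4 0.13 and Bglap with Spp1 0.01. With Col2a1 at 0.5% of UMIs (709 cells) rho was -0.23 for Col2a1 with Prg4, and it turned to -0.056 for Col2a1 with Bglap and to -0.038 for Bglap with Spp1, which also turned without thinning (-0.0081). All cells share 1 library, so these are descriptions of it. For each gene, the 290 cells with the highest level are called rich in it and the 290 with the lowest are called poor in it (for Bglap, the 318 cells at 0). Col2a1-rich and Prg4-rich cells had 30 cells in common (10.3% of 290), where each such set holds 290 of the 1162 cells. Col2a1 and Bglap shared 82 cells (28.3%), Bglap and Spp1 86 (29.7%), and Spp1 and Prg4 90 (31.0%). Of the thinned cells 347 were rich in none of the 4 genes, 508 in 1, 270 in 2, 36 in 3 and 1 in all 4.

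Along Col2a1 the cartilage collagens moved together. In 4 successive groups of 290 to 292 cells, from the lowest to the highest Col2a1, Col9a1 had 120, 384, 1073 and 2219 CPM, and Col11a1 had 283, 823, 1975 and 3892 CPM. Acan had 437, 757, 984 and 1261 CPM, and Sox9 only 538, 663, 673 and 770 CPM. The order of the groups was the same in all 4 genes, with Col9a1 steepest and Sox9 flattest. Col2a1-poor cells, with Col2a1 at 2600 CPM or less, still had Chad at 3810 CPM and Snorc at 1459 CPM, above the 1144 and 165 CPM of the 57 Myh11-positive cells. Chad and Comp were not highest in the last group: Chad had 3810, 7581, 8282 and 6601 CPM, and Comp 2203, 4397, 4481 and 4062 CPM. Between Col2a1-rich and Col2a1-poor cells, 2.88% of the 5167 genes tested were 2-fold higher and 4.47% were 2-fold lower. Median depth before thinning was 14234 UMIs in Col2a1-rich and 9012 in Col2a1-poor cells, and the part of that gap in these ratios was not tested.

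Some genes that process collagen were higher with Col2a1. Serpinh1 (HSP47, the chaperone of procollagen) stood at 4444 CPM in Col2a1-rich and 1730 CPM in Col2a1-poor cells, P3h1 (prolyl 3-hydroxylase) at 247 and 62.1 CPM, and Pcolce2 (an enhancer of procollagen cleavage) at 1298 and 391 CPM. In all, 7 of 22 such genes were 2-fold higher and none was lower, and the other 15 stayed inside the bound, such as P4ha1 with 104 against 74.5 CPM. Of 20 genes of the unfolded protein response 0 were past 2-fold in either direction, with a median log2 ratio of 0.04. Genes of cholesterol synthesis were low in level but all 6 that could be tested were 2-fold higher, for example Fdft1 (squalene synthase) at 37.9 against 5.52 CPM and Insig1 (a sterol sensor of the endoplasmic reticulum) at 146 against 43.4 CPM. Genes closest to Col2a1 over single cells were Col11a1 (rho 0.79), Col9a1 (0.77), Sparc (0.76), Col11a2 (0.71) and Col9a3 (0.70), where 99% of 5167 genes lay below 0.26.

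At the low end of Col2a1 another set of secreted proteins was high. Mmp13 (collagenase 3, which cleaves type II collagen) stood at 36.6 CPM in Col2a1-rich and 588 CPM in Col2a1-poor cells. Chil1 (a chitinase-like protein secreted by stressed chondrocytes) had 362 and 3304 CPM, and Clu (clusterin, a secreted chaperone) had 806 and 6093 CPM. Smoc1 was the lowest named ratio, with 8.28 and 156 CPM (log2 ratio -4.24). Prg4 had 635 and 2789 CPM, and Mmp3 (stromelysin) 57.2 and 168 CPM. The Clu level of Col2a1-poor cells lay above the 57 Myh11-positive cells, whose pooled level was 3423 CPM. Col2a1-poor cells were therefore higher in these 6 secreted proteins.

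Along Bglap, 5 of 8 genes of the bone list were 2-fold higher and none was lower, and 4 of 6 superficial and articular chondrocyte genes were 2-fold lower and none was higher. Bglap-rich cells were set against the 318 cells with no Bglap UMI. Bglap2 had 5562 CPM against 96.2, Ibsp 5248 against 1228, and Alpl 1551 against 365. Panx3, a channel protein of hypertrophic chondrocytes, had 778 CPM against 150, Smpd3 (a sphingomyelinase needed for mineralisation) 272 against 32.1, and Prkg2 (a kinase of growth plate chondrocytes) 334 against 18.2. Chad had 13363 CPM against 3394 and was the second closest gene to Bglap over single cells (rho 0.51), after Bglap2 (0.68). In contrast Otor (otoraplin) had 190 CPM against 2421, Myoc (myocilin) 29.7 against 236, Ogn (osteoglycin) 59.3 against 378 and Clu 629 against 3499. Over the 5167 genes, 1.78% were higher and 3.79% lower. Sox9 was at 590 CPM against 672.

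Along Spp1 the differences were fewer: 1.32% of genes were 2-fold higher and 0.658% were 2-fold lower. Among the genes with the highest ratios that were seen in 20% of cells were proteases, with Mmp13 at 657 CPM in Spp1-rich cells against 75.9 CPM in Spp1-poor cells, and Mmp3 at 252 against 32.4 CPM. Ibsp had 4863 CPM against 1421, Bmp2 (a bone morphogenetic protein) 237 against 44.8, and Lcn2 (lipocalin 2, an iron carrier of inflamed tissue) 781 against 163. Matn3 was lower, 74.5 CPM against 477, as was Ucma (a Gla protein of growth cartilage), 122 CPM against 404. Of 14 matrix proteases and inhibitors 5 were 2-fold higher and none was lower. The genes closest to Spp1 over single cells were only loosely so, from Serpine2 (rho 0.37) to Ibsp (0.23). Alpl, in contrast to its course along Bglap, had 749 CPM against 759.

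Along Prg4 the cartilage collagens were lower: 7 of 11 tested were 2-fold lower and none was higher, where 1.61% of the 5167 genes were lower and 1.43% higher. Col11a1 had 952 CPM in Prg4-rich cells against 2650 CPM in Prg4-poor cells, and Hapln1 511 against 1449 CPM. Clu (4526 against 997 CPM), Chil1 (2979 against 580 CPM), Mmp13 (491 against 55.9 CPM) and Sfrp4 (368 against 76.6 CPM), a Wnt inhibitor, were higher. Tnfrsf11b had 2969 CPM against 1099 and was second to Clu among the genes closest to Prg4 (rho 0.37 and 0.39 for Clu). Of the 9 bone and mineralising genes tested 2 were 2-fold lower and 1, Mmp13, was 2-fold higher. Panx3 had 157 CPM against 534 and Alpl 519 against 1105, while Spp1 had 5448 CPM against 2918. Ihh, seen in too few cells to enter that count, had 7.59 CPM against 96.6. Cholesterol synthesis, higher along Col2a1, was lower here in 5 of 6 genes. Sox9 differed little, with 627 CPM against 733. Before thinning, median depth was 10396 UMIs in Prg4-rich and 13123 in Prg4-poor cells. The part of that gap in these ratios was not tested.

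Pooled Mmp13 was high both in Spp1-rich and in Prg4-rich cells, and low in Col2a1-rich cells. A minority of cells had a UMI of it. The shares were 34.5% of Spp1-rich against 14.8% of Spp1-poor cells and 25.2% of Prg4-rich against 16.9% of Prg4-poor cells. Along Col2a1 they were 14.8% of rich against 26.2% of poor cells. Along Bglap, Mmp13 had 481 CPM in Bglap-rich cells against 223 CPM in cells at 0. Sfrp4 was high along Bglap (323 CPM against 108), Spp1 (388 against 128) and Prg4, and low along Col2a1 (77.2 CPM against 319). Dcn was nearly level along Col2a1, with 7661 CPM in Col2a1-rich against 8051 CPM in Col2a1-poor cells.

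**Figure D4:**
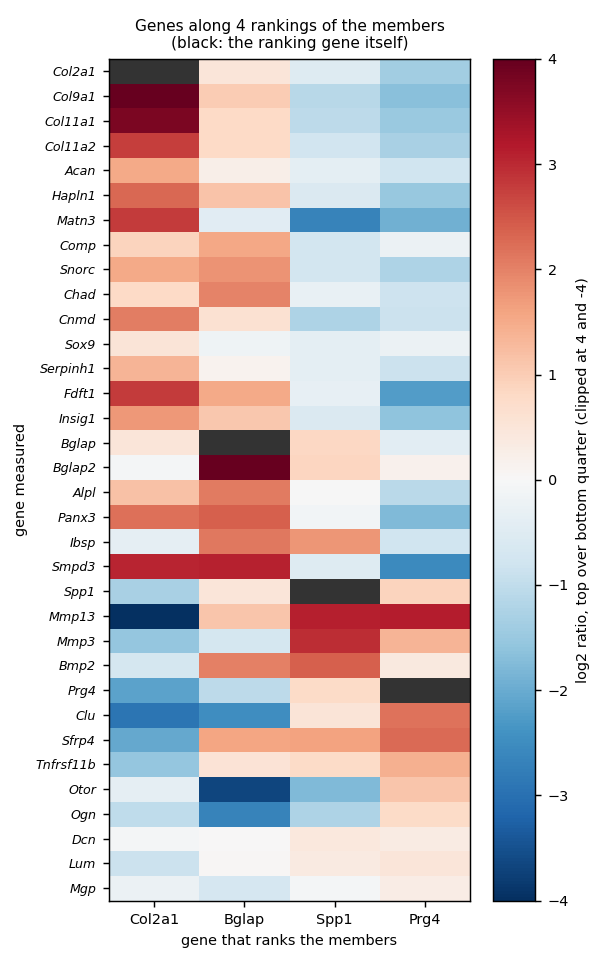
Log2 ratio of rich over poor cells, 290 each, among the chondrocyte-like cells (colour, clipped at 4 and -4, with 318 Bglap-poor cells) for the genes in the rows when cells are ranked by Col2a1, Bglap, Spp1 or Prg4 (columns), after thinning to 5000 UMIs. The cartilage collagens are red along Col2a1 and blue along Prg4, Alpl and Panx3 are red along Bglap, and Mmp13 is dark blue along Col2a1 and red along Spp1 and Prg4.

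Cells that met the same rule were rare in the other libraries. There were 23 of 2253 in KO at 2 months (1.02%, interval 0.648% to 1.53%) and 32 of 1235 in Apoe-/- at 4 months (2.59%, interval 1.78% to 3.64%). Col2a1 is listed at 0 in both ND libraries, both 1 month libraries and the Apoe-/- 2 month library, so the rule could find no cell there. Genotype, diet time and library cannot be told apart in these comparisons, and the small sets are dominated by few cells.

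Against the 23 KO cells at 2 months, 5.61% of 7009 genes listed in both libraries were 2-fold higher in the chondrocyte-like cells and 4.69% were 2-fold lower. Stress response genes were 2-fold higher in 10 of 21 and lower in none, for example Jun at 446 CPM against 149, and the part of handling in this contrast was not tested. Bglap had 3377 CPM against 522, with medians over single cells of 262 against 36.2 CPM. Spp1 was lower, 5200 CPM against 16042, but 42.9% of the Spp1 UMIs at 2 months came from 1 cell, and the medians were 775 against 313 CPM. Acan (882 CPM against 817), Sox9 (659 against 473) and Col9a3 (1544 against 1389) were nearer to each other. Prg4 had 1362 CPM against 286. Contractile genes were lower in 9 of 13, for example Cnn1 at 15.4 CPM against 125. The Myh11-positive cells of the 2 month library had 2575 CPM of Cnn1 and 23307 CPM of Acta2, and the part of their free RNA in this difference was not tested.

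Against the 32 Apoe-/- cells at 4 months, 10.3% of 7432 genes were 2-fold higher and 9.89% were 2-fold lower. Of the 11 chondrocyte markers tested 5 were 2-fold higher in the KO cells and none was lower, and of 10 minor cartilage matrix genes 5 were higher and 2 lower. Col2a1, which chose the cells, is not in these counts. Its pooled level was lower in the KO cells, 13051 CPM against 27356, with medians over single cells of 7490 against 7560 CPM. Stress response genes, which tissue digestion can induce, were 2-fold higher in 11 of 21 and lower in none, for example Hspa1a at 220 CPM against 61.4, and the part of handling in this contrast was not tested. Inside the 2-fold bound, Acan had 882 CPM against 1160, Chad 6444 against 9553 and Sox9 659 against 746. Cnmd was higher, with 4726 CPM against 243 and medians over single cells of 3268 against 0 CPM. Snorc had 3537 CPM against 1049, Chadl (a chondroadherin relative) 358 against 50.1, and Penk (proenkephalin) 726 against 56.9. These genes also differed between the Myh11-positive cells under the Col2a1 level of the KO and Apoe-/- libraries. There Penk had 371 CPM against 49.9, Cnmd 505 against 7.17, Snorc 165 against 13.1 and Chadl 50.9 against 6.04. The part of free RNA in these differences was not tested. Several fibril and crosslinking genes of the vessel wall were lower in the KO cells. Lox, the enzyme that crosslinks collagen and elastin, had 14.6 CPM against 719, with a UMI in 9.65% against 93.8% of cells. In the Myh11-positive cells of the Apoe-/- library Lox stood at 210 CPM, below the cells that met the rule. Ltbp2 had 11.8 CPM against 325, Col1a1 1947 against 8286 and Col1a2 3804 against 12199. Eln had 14.4 CPM against 453, but 61.3% of those Apoe-/- UMIs came from 1 cell and its median was 0 in both sets, and the Myh11-positive cells of the Apoe-/- library had 1923 CPM. The part of free RNA in the Eln difference was not tested. Of 12 elastic fibre genes 10 were 2-fold lower and of 10 interstitial collagens 9 were 2-fold lower. Bglap is listed at 0 in the Apoe-/- library, so no ratio is given. Of 5 bone and mineralising genes tested 1 was 2-fold higher in the KO cells and 2 were 2-fold lower. Ibsp had 2620 CPM against 8534, with medians over single cells of 321 against 5780 CPM. Spp1, inside the 2-fold bound, had 5200 CPM against 7710, with medians of 775 against 3587 CPM.

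**Figure D5:**
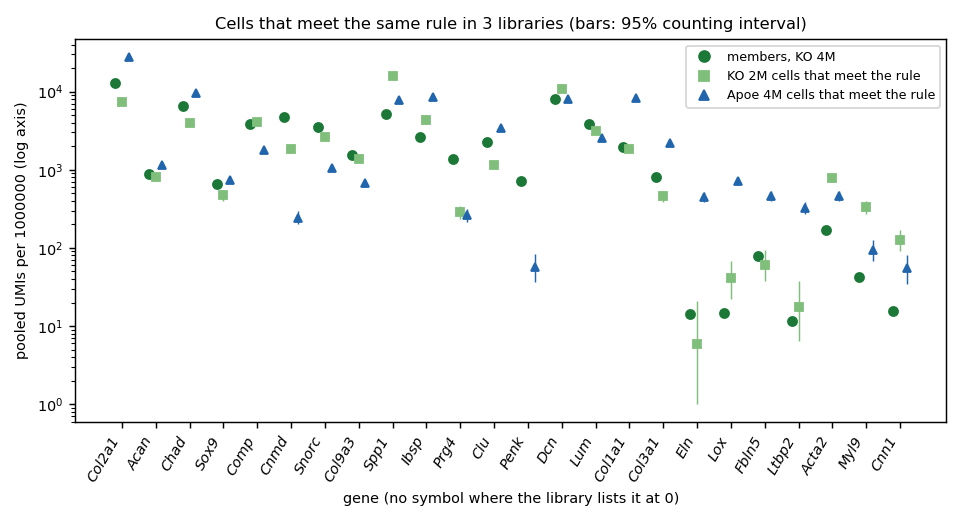
Pooled level (y, UMIs per 1000000, log axis) of 24 genes in the 1254 chondrocyte-like cells of KO 4M (circles), the 23 KO 2M cells (squares) and the 32 Apoe 4M cells (triangles) that met the same rule. Bars are 95% counting intervals. Acan and Sox9 lie close together in all 3 sets, whereas Cnmd is lowest and Lox, Ltbp2 and Col1a1 are highest in the Apoe 4M cells.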

How the data were processed

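Single cells of 8 libraries (1 per genotype and diet) were measured by droplet RNA sequencing. The authors deposited log2 values, which their file names describe as scaled with trimmed-mean factors and freed of Apoe and Tgfbr2. Tools named in the processing notes of the submitters are STAR, UMI-tools, featureCounts and Subread 1.6.0, on GRCm38. Which annotation release they counted on is not stated in these notes. All table columns belong to a sample (0 do not).

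The inverse of the log2 transform, minus 1, divided by the smallest such nonzero value of its cell gave whole UMIs for 100% of entries (tolerance 0.01). Levels are summed UMIs per 1000000 (CPM) with exact Poisson 95% intervals, and shares have exact Clopper-Pearson 95% intervals. A gene counted as higher or lower at a log2 ratio of 1 or -1, among genes seen in 10% of either group. Named genes were taken from the 25 highest and 15 lowest ratios with at least 100 UMIs, the 8 highest and 8 lowest per contrast of rich and poor cells (genes seen in 20% of cells) and per library contrast, the 5 closest by rho, and genes of fixed lists. No doublet caller was run and no cell was removed. Cells were thinned to 5000 UMIs for these contrasts. Symbols are from GENCODE vM21 (11214 of the 11221 identifiers of the KO table matched). Python 3.11.15, numpy 2.4.6, scipy 1.17.1, pandas 2.3.3 and matplotlib 3.10.9 were used, and the ratio and thinning steps were tested on simulated data. The cells, gene lists and comparisons were chosen with earlier results of these data known.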

Additional observations from a re-analysis of the deposited data

How the results depend on the processing

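No paired analysis was possible because each genotype and diet had 1 library and no result comes from a test. The number of chondrocyte-like cells was 1359 with Col2a1 at 0.05% of UMIs, 757 at 0.5%, 527 at 1%, 1348 with at most 1 Myh11 UMI and 1402 with no condition on Myh11. It was 1253 without cells that carry markers of another type, 1210 without cells above 2 times the median UMIs, and 1254 from the 4 month diet table. The count of higher genes was 41 and became 14, 101 and 94 at 0.05%, 0.5% and 1% Col2a1, 224 with at most 1 Myh11 UMI, 198 with no Myh11 condition, 219 against cells under 0.1% Col2a1 alone, 80 as a mean over cells, 69 in thinned cells, 69 with genes seen in 5%, 69 with all listed genes and 84 with trimmed-mean scaling. The count of lower genes, 554, became 319 at 1% Col2a1, 1102 with at most 1 Myh11 UMI, 980 with no Myh11 condition and 1065 against cells under 0.1% Col2a1. The share of calls that were higher was 6.89%, against 16.9% with trimmed-mean scaling (84 higher and 414 lower). The 40 named ratios kept their sign under every alternative but for Lyz2, whose log2 ratio was -2.08 at 0.5% and -1.84 at 1% Col2a1. Their size was less stable among the 25 named higher genes. Of these, 5 stayed at least 2-fold higher at 0.05% Col2a1, 17 at 0.5%, 12 at 1% and 19 in thinned cells. Under the other alternatives 24 or 25 did. All 15 named lower genes stayed at least 2-fold lower under every alternative. With Col2a1 at 0.5%, rho was -0.056 for Col2a1 with Bglap, -0.038 for Bglap with Spp1 and -0.23 for Col2a1 with Prg4, and without thinning it was -0.0081 for Bglap with Spp1. The share of cells that met the rule in KO 4M was 86.2% at 0.05%, 48.0% at 0.5%, 88.9% with no Myh11 condition and 85.7% in thinned cells. In KO 2M it was 0.577% at 0.5%, 2.53% with no Myh11 condition and 2.20% in thinned cells, and in Apoe 4M it was 1.46%, 4.13% and 4.37% under the same settings. Fewer UMIs per cell make 0 Myh11 UMIs easier to reach, and thinning also left out the cells under 5000 UMIs. The part of each in the thinned shares was not tested. Of 128 values for the ratios between rich and poor cells, without thinning or with other group sizes, 0 changed sign. The cause of the other shifts was not tested either. The single library per group leaves differences between mice unmeasured.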

Other observations

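The chondrocyte-like cells differed in several genes from the 118 cells with neither the Col2a1 level nor Myh11. Their Prg4 stood at 1362 CPM and their Clu at 2233 CPM, against 2198 and 7590 CPM in the 118 cells. Vcam1 (48.4 CPM against 1168), Mmp13 (215 against 939) and Eln (14.4 against 536) were also lower in the chondrocyte-like cells, while Chad (6444 against 1947) and Cnmd (4726 against 813) were higher. Sox9 was at 659 CPM against 530, and Acta2 at 167 CPM against 486.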
